A study of Mus musculus with 6 samples.

Results

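The genes described here are the 68 histone genes whose symbols start with Hist1h to Hist4h, out of 24346 gene symbols measured in mouse hippocampus. They were picked by symbol and sorted into the classes H1 (6 genes), H2A (18), H2B (19), H3 (12) and H4 (13), and into 4 genomic clusters. The H2B member Hist3h2bb-ps is annotated as a transcribed pseudogene. The family was proposed after Hist1h2ad and Hist1h2bk had stood out in earlier work on these libraries. The RNA came from 3 TonEBP+/- mice (HET 1 to HET 3) and from 3 of their wild-type littermates (WT 1 to WT 3). TonEBP is a transcription factor that responds to tonicity and is encoded by Nfat5. All mice were 12 months old, on a C57BL/6 background, with no treatment or sex named. The disrupted stretch of the gene is not described in the labels. The libraries are numbered with nothing on separate extractions, so errors measure the spread between these libraries.

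Core histones H2A, H2B, H3 and H4 form the protein spool of the nucleosome, and linker histone H1 binds the DNA that enters and leaves it. Replication-dependent histone genes mostly lack introns, lie in clusters and are transcribed mainly in S phase, and their mRNAs end in a short stem-loop in place of a poly(A) tail. The stem-loop is bound by SLBP, and the U7 small nuclear RNP directs the cut behind it. In cells that have stopped dividing, some of these genes also give longer, polyadenylated transcripts.

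The 3′ stem-loop is shown first because it is the typical end of these mRNAs, although members were picked by symbol. It was searched for behind the stop codon of annotated GENCODE transcripts (GRCm38). Of 67 members with a coding transcript, 46 held it, starting 22 to 59 bases after the stop codon. Of the 21 others, 18 have between 0 and 48 annotated bases behind the stop codon, so the annotation leaves little or no sequence to search, and 3 (Hist1h2bc, Hist1h2br and Hist2h2be) have a long end in which it was not found. These stem-loops had 8 distinct sequences, of which the 5 found in more than 1 gene are given as DNA letters, with the loop of 4 bases in capitals.
26 genes of H1, H2A, H2B and H3: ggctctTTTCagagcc
6 genes of H1, H2B and H3: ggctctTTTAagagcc
7 genes of H4: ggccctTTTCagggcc
Hist1h4i and Hist2h4: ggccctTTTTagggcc
Hist1h4b and Hist1h4j: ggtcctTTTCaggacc
All 34 stem-loops outside H4 started with ggctct, and 0 of the 12 in H4 did. In 23 of the 46 genes the annotated transcript ran at least 100 bases past the stem-loop. Among these were the most abundant members, Hist1h4d and Hist1h4c, and also Hist1h1c, Hist3h2a and Hist4h4.

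Many members are hard to tell apart by short reads. The share of a transcript's 50-base stretches found in no other annotated gene had a median of 51.8% over the 54 members that passed a filter on low values, and of 9.71% over the 14 that did not. The filter asked for 1 FPKM in 3 or more libraries. FPKM is a level per kilobase of transcript and per sequencing depth, read here from deposited log2 values. Hist2h2aa1 and Hist2h2aa2, duplicate H2A genes, shared all their stretches with other genes. Hist2h2aa2 was listed at 1.13 FPKM in HET 1 and near 0 in the other libraries. Hist2h2aa1 was listed near 0 in all TonEBP+/- libraries and in WT 3, at 0.228 FPKM in WT 1 and at 0.576 FPKM in WT 2. Values of such copies can depend on how shared reads were assigned, which no source used here states. Hist2h2bb, an H2B gene, also had 0% unique stretches but averaged 203 FPKM over the 6 libraries, so its level is uncertain too.

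The family's RNA was mostly H4. H4 made up 67.0% of the summed FPKM of the 68 genes, between 66.0% and 67.8% in single libraries. H2B made up 13.7%, H2A 7.11%, H1 6.75% and H3 5.43%, each a mean over the 6 libraries. The Hist1 cluster on chromosome 13, with 54 genes, held 81.4% of the sum, and Hist2 on chromosome 3 held 11.0%. Hist3 on chromosome 11 held 5.54%, and the single gene Hist4h4 on chromosome 6 held 2.00%. Of the 54 members above the filter, 11 averaged 100 FPKM or more, and 8 of these were H4 genes. FPKM divides by transcript length, and the annotation behind it is unknown here, so the order of members with different annotated ends is approximate.

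**Figure D1:**
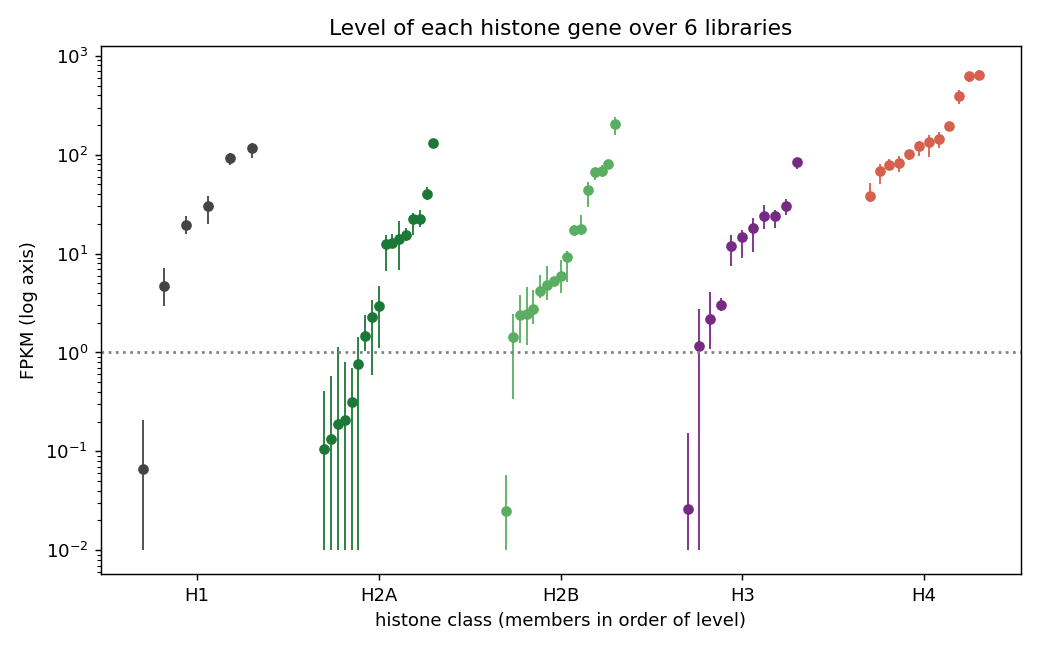
FPKM of each histone gene on a log axis, by class, with genes in order of level. Points are means of 6 libraries and lines run from the lowest to the highest library, with values under 0.01 drawn at 0.01, genes averaging less left out and a dotted line at 1 FPKM. The H4 genes shown average 38.5 FPKM or more, while each other class reaches down to under 1 FPKM.

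Within H4, Hist1h4d (chr13:23581568-23581969, GRCm38.p6) and Hist1h4c (chr13:23698084-23698458) stood at the top with means of 642 and 631 FPKM, closer to each other than their libraries were among themselves. Hist1h4h followed with 388 FPKM and Hist1h4f with 196 FPKM. The lowest H4 gene above the filter, Hist1h4j, still averaged 38.5 FPKM, and 10 of the 42 genes of other classes above the filter lay higher. In H1, the highest levels were those of Hist1h1c, which encodes H1.2, at 118 FPKM and Hist1h1e, which encodes H1.4, at 92.3 FPKM. Hist1h1t, the testis linker histone gene, averaged 0.0669 FPKM. In H2A, Hist3h2a at 130.1 FPKM alone gave 46.7% of the class sum, with Hist2h2ac next at 40.4 FPKM. In H2B, Hist2h2bb was followed by Hist1h2bc at 80.8 FPKM. In H3, Hist1h3e at 83.6 FPKM was followed by Hist1h3f at 30.2 FPKM. Hist2h2be, whose product is an H2B variant known from olfactory neurons, averaged 5.31 FPKM. The testis genes Hist1h2aa and Hist1h2ba were listed at 0 in all 6 libraries, as were Hist1h2br and Hist1h4n, which share most of their sequence with other members.

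Since the family was chosen with the genotype contrast known, the differences that follow describe these libraries and are no independent evidence of a direction. In all 5 classes the median member was higher in TonEBP+/- than in wild-type libraries. The median log2 difference, TonEBP+/- minus wild type, was 0.18 in H1, 0.16 in H2A, 0.18 in H2B, 0.14 in H3 and 0.15 in H4, while the median of all 13122 genes tested was close to 0. Of the 54 members above the filter, 44 had a higher mean in TonEBP+/- libraries, where 50% of all genes did. By class these were 4 of 5 in H1, 9 of 11 in H2A, 12 of 16 in H2B, 8 of 10 in H3 and 11 of 12 in H4. In bulk tissue, a change in the number of cells of a type and a change in RNA per cell cannot be told apart. Counts from limma's moderated test over all genes are given only to place the members in the whole table, and nothing is read from them, since the same contrast prompted the family. In that test, 0 members passed an adjusted p of 0.05, as did 0% of all genes. With an unadjusted p under 0.05, 11 of the 54 members were higher, where 1.85% of all genes were. At the same p, 1 member was lower, where 1.84% of all genes were. Without Hist1h2ad and Hist1h2bk these counts were 9 and 1 of 52 members.

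The summed level of the family was 4287, 4121 and 3976 FPKM in HET 1 to HET 3, against 3309.9, 4215 and 3620.2 FPKM in WT 1 to WT 3. WT 2 lay between HET 1 and HET 2, so the groups overlapped. The H4 sum averaged 2770.0 ± 102 FPKM in TonEBP+/- libraries and 2484 ± 299 FPKM in wild-type libraries (SD, n = 3 each), a ratio of 1.12. The H2B sum averaged 566 ± 17.1 FPKM in TonEBP+/- libraries and 511 ± 79.0 FPKM in wild-type libraries (SD, n = 3 each). The H2A sum averaged 289 ± 13.9 FPKM in TonEBP+/- libraries and 268 ± 32.2 FPKM in wild-type libraries (SD, n = 3 each). In each class the 2 means differed by less than the SD of the wild-type libraries. The H1 sum averaged 278 ± 20.7 FPKM in TonEBP+/- libraries and 252 ± 35.4 FPKM in wild-type libraries (SD, n = 3 each). The H3 sum averaged 225 ± 16.5 FPKM in TonEBP+/- libraries and 201 ± 29.0 FPKM in wild-type libraries (SD, n = 3 each). By cluster, the ratio of summed levels, TonEBP+/- over wild type, was 1.11 for Hist1, 1.16 for Hist2 and 1.17 for Hist4h4. It was 0.998 for the 3 genes of Hist3, including the pseudogene Hist3h2bb-ps, and their median log2 difference was -0.01.

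The wild-type libraries also differed among themselves. The median deviation of the 54 members from the wild-type mean, in log2 units, was 0.23, 0.17 and 0.12 in HET 1 to HET 3, against -0.18, 0.15 and -0.00 in WT 1 to WT 3. WT 1 was the lowest wild-type library in 37 of the 54 members, and WT 2 was the highest in 38. WT 1 lay below all 3 TonEBP+/- libraries in 40 of the 54 members and in 25.3% of all genes. WT 3 did so in 33 members and 22.0% of all genes, and WT 2 in 17 members and 25.8% of all genes. Without WT 1 the median difference over the members was 0.08, and by class it was 0.06 in H1, 0.14 in H2A, 0.07 in H2B, 0.02 in H3 and 0.10 in H4. Without WT 2 it was 0.23 over the members. The number of members higher in TonEBP+/- libraries was 37 of 54 without WT 1 and 48 of 54 without WT 2.

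**Figure D2:**
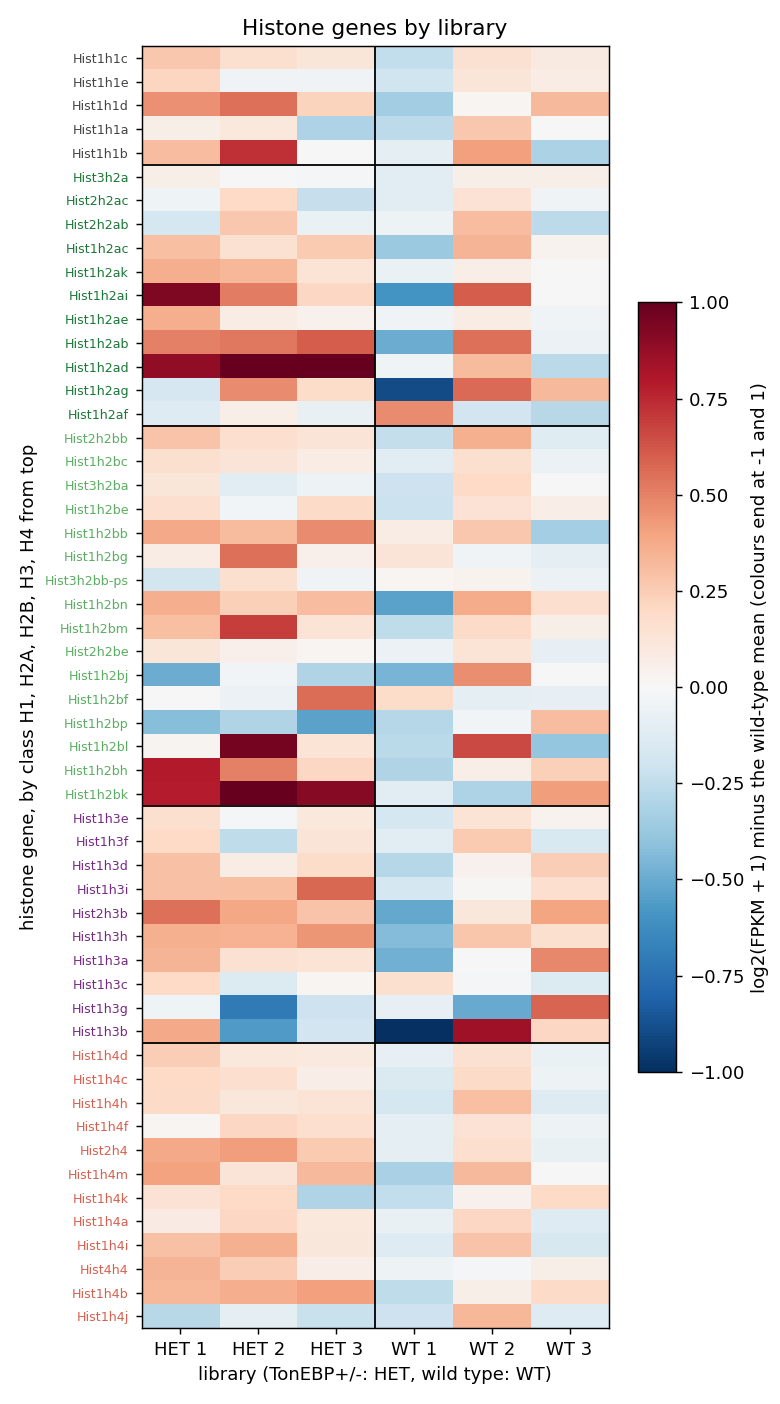
Each of the 54 histone genes above the filter in each library, as log2(FPKM + 1) minus the gene's wild-type mean, with classes separated by lines and TonEBP+/- libraries on the left. Red is above and blue below the wild-type mean, the column of WT 1 is mostly blue and that of WT 2 mostly red, and Hist1h2ad and Hist1h2bk are red in all 3 TonEBP+/- libraries.

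RNAs that share features with histone mRNA were set beside the family. Small nucleolar and Cajal body RNAs, which have no poly(A) tail, had median deviations of 0.45, 0.04 and -0.00 in HET 1 to HET 3, against -0.18, 0.29 and -0.06 in WT 1 to WT 3 (54 of 119 genes above the filter). For 5 further RNAs without a poly(A) tail, among them Rmrp and Rpph1, the median deviations were 0.12, -0.02 and 0.23 in HET 1 to HET 3, against -0.25, 0.34 and -0.09 in WT 1 to WT 3. For 18 other coding genes with only 1 annotated GENCODE transcript, of under 600 bases, they were 0.14, -0.03 and 0.10 in HET 1 to HET 3. In WT 1 to WT 3 they were -0.11, 0.24 and -0.14. In all 3 sets WT 2 was the highest wild-type library, as it was in H1, H2A, H2B and H4. In 282 coding genes with only 1 annotated transcript, of 1000 to 2000 bases, the median deviations were 0.00, -0.01 and 0.00 in HET 1 to HET 3. In WT 1 to WT 3 they were -0.02, 0.04 and -0.02. For 72 such genes of 600 to 1000 bases they were 0.02, -0.03 and 0.09, against -0.05, 0.11 and -0.08. For 424 of 2000 to 4000 bases they were 0.00, 0.01 and 0.00, against 0.02, -0.02 and 0.00. For 265 of 4000 bases or more they were -0.03, 0.01 and -0.02, against 0.02, -0.05 and 0.03. Coding genes with more annotated transcripts were left out. The part of RNA selection, transcript length or depth in the histone differences was not tested. The labels name total RNA and a directional kit, without a selection step.

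**Figure D3:**
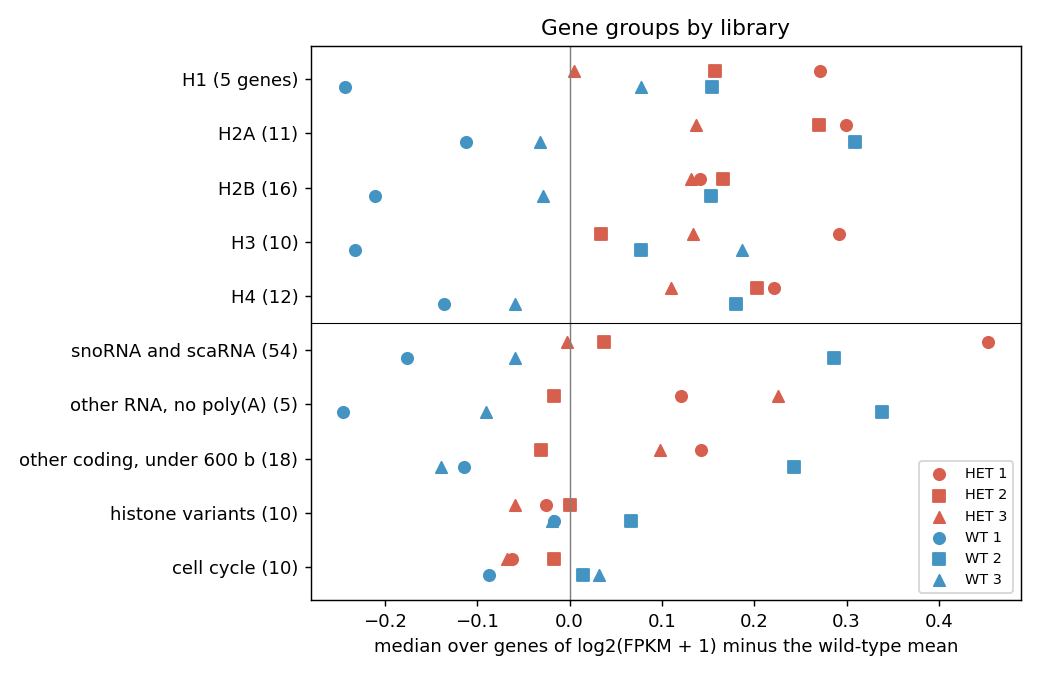
Median over genes of log2(FPKM + 1) minus the wild-type mean, for histone classes (above the line) and other gene groups, with the number of genes above the filter in brackets. Each point is a library, TonEBP+/- in red and wild type in blue, and WT 1 lies left of 0 and WT 2 right of it in all 5 histone classes and in both groups of RNAs without a poly(A) tail.

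Among single members, 9 of 54 had all 3 TonEBP+/- libraries above all 3 wild-type libraries, where 4.13% of all genes did. In 1 member they all lay below, where 4.39% of all genes did. Without Hist1h2ad and Hist1h2bk, which prompted the family, 7 of 52 lay above, and nothing is read from these counts. The count moved when single libraries were left out. It was 28 of 54 without WT 2, where 10.3% of all genes lay above. It was 14 without HET 3 (8.04% of all genes) and 14 without WT 3 (9.57% of all genes). Without WT 1 it was 12 (7.7% of all genes), without HET 1 it was 10 (10.1%) and without HET 2 it was 10 (8.7%). Fewer libraries leave less room for overlap, so the share over all genes is also larger there. The H4 gene Hist2h4 (chr3:96262934-96263317), with 99.0% unique stretches, was at 163, 168 and 151 FPKM in HET 1 to HET 3, against 118, 141 and 119 FPKM in WT 1 to WT 3. The groups did not overlap, with WT 2 nearest to HET 3, and the log2 difference was 0.35 (SE 0.0881). Hist4h4 (chr6:136803993-136804431), an H4 gene with 91.9% unique stretches, was at 91.2, 85.5 and 75.6 FPKM in HET 1 to HET 3, against 69.4, 71.5 and 75.2 FPKM in WT 1 to WT 3. HET 3 and WT 3 nearly met, and the log2 difference was 0.22 (SE 0.0808). Hist1h4b, also an H4 gene, was at 75.8, 77.5 and 80.3 FPKM in HET 1 to HET 3, against 50.2, 62.7 and 68.7 FPKM in WT 1 to WT 3. Its log2 difference was 0.37 (SE 0.105), with no overlap, and 24.1% of its stretches were unique.

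The H2A gene Hist1h2ad (chr13:23574381-23574915) had the largest log2 difference of the 54 members. It was at 3.67, 4.71 and 4.45 FPKM in HET 1 to HET 3, against 1.45, 2.14 and 1.10 FPKM in WT 1 to WT 3. All TonEBP+/- libraries were above all wild-type libraries, with a log2 difference of 1.06 (SE 0.157). By the step between low values these levels stand for about 17.0, 24.1 and 32.5 fragments in HET 1 to HET 3, against 8.87, 11.1 and 6.14 fragments in WT 1 to WT 3. Of the 50-base stretches in its coding part, 0% were unique. The H2B gene Hist1h2bk (chr13:22035821-22036320) was at 1.86, 2.46 and 2.13 FPKM in HET 1 to HET 3, against 0.538, 0.341 and 1.22 FPKM in WT 1 to WT 3. Its log2 difference was 0.92 (SE 0.187), with no overlap. It passed the filter through the 3 TonEBP+/- libraries and WT 3, so it was kept because it was high there. Its levels stand for about 7.17, 10.5 and 12.9 fragments in HET 1 to HET 3, against 2.74, 1.47 and 5.69 fragments in WT 1 to WT 3.

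The other genes without overlap between the groups were Hist1h2bb, Hist1h3i, Hist1h3h and Hist1h2ak, with log2 differences of 0.39, 0.39, 0.38 and 0.28. Hist1h2bb, an H2B gene, was at 49.5, 47.5 and 53.2 FPKM in HET 1 to HET 3, against 40.0, 45.9 and 29.7 FPKM in WT 1 to WT 3. The H3 genes Hist1h3i and Hist1h3h had 12.4% and 6.08% unique stretches. Among members whose groups overlapped, the next largest positive log2 differences were those of Hist1h2ai (0.55, SE 0.363), Hist1h2ab (0.55, SE 0.249), Hist1h2bh (0.50, SE 0.181) and Hist1h1d (0.41, SE 0.165). Hist1h2ai, an H2A gene, was at 21.4, 15.7 and 12.6 FPKM in HET 1 to HET 3, against 6.77, 16.8 and 10.7 FPKM in WT 1 to WT 3, so its groups overlapped widely. The 2 most abundant members, Hist1h4d and Hist1h4c, had log2 differences of 0.15 (SE 0.0980) and 0.14 (SE 0.105), and in both WT 2 lay above HET 2 and HET 3.

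In 10 members the mean was lower in TonEBP+/- libraries. Hist1h2bp, an H2B gene, was at 2.17, 2.47 and 1.94 FPKM in HET 1 to HET 3, against 2.50, 3.19 and 4.28 FPKM in WT 1 to WT 3. Its groups did not overlap, though HET 2 and WT 1 nearly met, and the log2 difference was -0.42 (SE 0.154). Its levels stand for about 8.24, 10.4 and 11.6 fragments in HET 1 to HET 3, against 12.5, 13.6 and 19.6 fragments in WT 1 to WT 3. Of its 50-base stretches, 31.0% were unique. The next in size were Hist1h3g (-0.32, SE 0.286), Hist1h2bj (-0.27, SE 0.231), Hist1h4j (-0.20, SE 0.132), Hist1h3b (-0.13, SE 0.536) and Hist1h1a (-0.05, SE 0.153), all with overlapping groups. Hist1h4j, the 1 of 12 H4 genes above the filter that was lower on average, was at 33.6, 38.1 and 35.0 FPKM in HET 1 to HET 3, against 35.4, 51.7 and 37.4 FPKM in WT 1 to WT 3, so that WT 2 alone stood apart. Members nearest to the filter, by their mean FPKM, were Hist1h3b (1.18), Hist1h2bk (1.42) and Hist1h2af (1.45) inside it, and Hist1h2an (0.770), Hist1h2ah (0.318) and Hist1h2ap (0.208) outside it.

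Over the 30 members above the filter with at least 50% unique stretches the median log2 difference was 0.15, and 26 were higher in TonEBP+/- libraries. Over the 24 with fewer unique stretches it was 0.24, and 18 were higher. Members whose annotated transcript ran past the stem-loop (20 above the filter) had a median log2 difference of 0.15, and those that ended near it (18) had 0.17. The median level over members was 73.5 FPKM for the transcripts that ran on and 5.33 FPKM for those that ended near the stem-loop. These sets differ in their mix of classes, so the 3′ end and the class were not separated. Of the 3 most abundant H4 genes, Hist1h4d and Hist1h4c ran on and Hist1h4h ended near it.

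**Figure D4:**
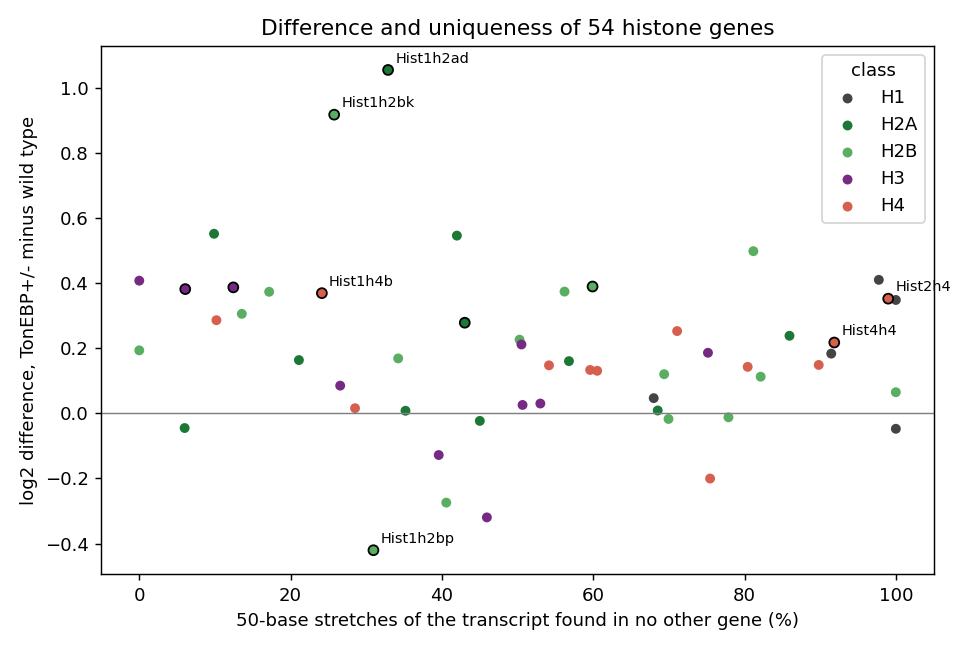
Log2 difference of 54 histone genes, TonEBP+/- minus wild type, against the share of their 50-base stretches found in no other gene. Points are genes coloured by class and black rims mark genes whose groups do not overlap, and the highest points, Hist1h2ad and Hist1h2bk, have 32.9% and 25.8% unique stretches, against 99.0% in Hist2h4 and 91.9% in Hist4h4.

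Within the clusters, 14 pairs of members pointed away from each other with 163 to 607 bases between their starts. In 13 of these an H2A member was joined to an H2B member, which for Hist3h2a was the pseudogene Hist3h2bb-ps. Hist1h2ad is paired with the H2B gene Hist1h2bf, 173 bases apart. Hist1h2bf was at 3.83, 3.64 and 6.13 FPKM in HET 1 to HET 3, against 4.48, 3.52 and 3.55 FPKM in WT 1 to WT 3. Its groups overlapped, with HET 3 highest, and the log2 difference was 0.17. Hist1h2bk is paired with Hist1h2ah, which stayed under the filter. Of the 9 pairs with both genes above the filter, 6 had log2 differences of the same sign. Since 44 of 54 members were higher, unpaired members also often share a sign, and nothing is read from this count.

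The 120 bases before the start are given for Hist1h2ad, Hist1h2bk and Hist1h2bb, which were higher without overlap, for Hist1h2bp, which was lower without overlap, and for Hist1h4c and Hist1h4d as the most abundant members. They run 5′ to 3′ on the gene's strand (RefSeq promoters, GRCm38.p6, with starts as that table places them). Capitals mark matches, on either strand, to the CCAAT box, the TATA box sequence TATAAA and the octamer ATTTGCAT known from H2B promoters.
Hist1h2ad (chr13:23574261-23574380, plus strand): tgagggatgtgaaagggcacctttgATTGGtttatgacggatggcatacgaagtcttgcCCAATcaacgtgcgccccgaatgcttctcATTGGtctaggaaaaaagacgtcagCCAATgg
Hist1h2bk (chr13:22035701-22035820, plus strand): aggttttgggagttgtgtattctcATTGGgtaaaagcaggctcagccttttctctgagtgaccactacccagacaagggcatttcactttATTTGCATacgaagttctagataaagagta
Hist1h2bp (chr13:21787368-21787487, plus strand): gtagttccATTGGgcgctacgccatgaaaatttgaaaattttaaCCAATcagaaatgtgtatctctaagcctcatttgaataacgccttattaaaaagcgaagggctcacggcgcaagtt
Hist1h2bb (chr13:23746614-23746733, plus strand): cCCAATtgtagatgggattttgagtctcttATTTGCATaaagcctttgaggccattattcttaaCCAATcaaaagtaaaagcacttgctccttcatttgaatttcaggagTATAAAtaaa
Hist1h4c (chr13:23698459-23698578, minus strand): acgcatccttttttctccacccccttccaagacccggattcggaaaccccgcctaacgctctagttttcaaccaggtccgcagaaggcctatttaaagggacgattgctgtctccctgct
Hist1h4d (chr13:23581448-23581567, plus strand): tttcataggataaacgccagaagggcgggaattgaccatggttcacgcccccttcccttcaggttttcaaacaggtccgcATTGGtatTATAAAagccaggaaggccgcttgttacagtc
Over the 250 bases before the start, the CCAAT box occurred in 51 of 62 members with an entry (82.3%), and in 33.8% of all 32851 promoters over the same length. It was in 18 of 18 H2A and 16 of 16 H2B members but in 3 of 12 H4 members. The octamer was in 7 of 18 H2A and 7 of 16 H2B members, in 0 members of H1, H3 and H4, and in 1.6% of all promoters. The TATA box sequence occurred in 46.8% of the members and 12.4% of all promoters. Paired genes share part of their windows, so these counts are not independent.

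Genes around the histone pathway were compared from lists, and 0 of their members passed limma's adjusted p of 0.05. At limma's unadjusted p under 0.05, 1 of 23 genes for histone transcription and mRNA processing (Ccne2) was lower. So was 1 of 10 cell cycle genes (Ccna2). Of all genes, 1.84% were lower at that p, and nothing is read from single genes of a list. Most genes listed as replication-independent histone variants are expressed throughout the cell cycle, with poly(A) tails. These variants were higher on average in 3 and lower in 7 of 10 members above the filter, with a median log2 difference of -0.03. The largest log2 differences were those of H2afx, the variant phosphorylated at DNA breaks (-0.16, SE 0.127), H2afv (-0.11, SE 0.0914) and H2afj (0.08, SE 0.0755). The summed variants were at 581, 564 and 581 FPKM in HET 1 to HET 3, against 562, 624 and 575 FPKM in WT 1 to WT 3. Genes for histone transcription and mRNA processing, such as Npat, Slbp and Lsm11, were higher in 13 and lower in 10 of 23 members, with a median of 0.04. The largest log2 differences were those of Ccne2, a cyclin gene (-0.29, SE 0.119), Cpsf3, which encodes the nuclease that cuts behind the stem-loop (-0.19, SE 0.110), and Hinfp, which encodes an activator of H4 genes (0.15, SE 0.117). Histone chaperones were higher in 9 and lower in 5 of 14 members (median 0.02), with the largest log2 differences in Daxx (0.15, SE 0.0852), Nap1l1 (-0.08, SE 0.0915) and Nasp (0.07, SE 0.102).

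Markers of dividing cells were low. Of 15 genes for proliferating cells, 2 passed the filter, Ccna2 and Tyms. The 15 summed to 10.3, 8.85 and 8.08 FPKM in HET 1 to HET 3, against 9.00, 9.96 and 10.2 FPKM in WT 1 to WT 3. In a wider cell cycle list that holds these 15, 2 of 10 members above the filter were higher and 8 lower, with a median log2 difference of -0.04, and the largest were those of Ccna2 (-0.29, SE 0.115), Mcm6 (-0.10, SE 0.136) and Mcm3 (-0.09, SE 0.130). Markers of oligodendrocyte precursors, a dividing glial type, were higher on average in TonEBP+/- libraries in 5 of 5 genes and summed to 22.6, 23.3 and 20.1 FPKM in HET 1 to HET 3, against 21.2, 16.3 and 20.2 FPKM in WT 1 to WT 3. WT 2 was the lowest library for these and the highest wild-type library for the histone family. Their part in the histone values was not tested.

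Nfat5 was at 8.25, 9.31 and 8.42 FPKM in HET 1 to HET 3, against 10.5, 8.39 and 9.72 FPKM in WT 1 to WT 3, and the groups overlapped, so it gave no check of the labels. The step between low values corresponds to about 8110000 to 12770000 fragments per library. All 7 hippocampal markers passed the filter, and 1 of them, Pcp4, had all TonEBP+/- below all wild-type libraries. So did 1 of 6 thalamus markers, while 1 of 5 oligodendrocyte precursor and 1 of 8 microglia markers lay above without overlap. Of all genes, 4.39% lay below in this way and 4.13% above, and nothing is read from these single markers. Pcp4, a calmodulin-binding protein gene, was at 162, 109 and 128 FPKM in HET 1 to HET 3, against 208, 235 and 171 FPKM in WT 1 to WT 3, with a log2 difference of -0.63 (SE 0.162). Summed thalamus markers were at 174, 94.7 and 89.1 FPKM in HET 1 to HET 3, against 157, 173 and 166 FPKM in WT 1 to WT 3, with HET 2 and HET 3 low. Summed choroid plexus markers ranged from 94.7 to 3434 FPKM in TonEBP+/- libraries and from 277 to 2875 FPKM in wild-type libraries. Markers of microglia, meningeal fibroblasts, neural progenitors and blood had median log2 differences of 0.09, 0.21, 0.03 and 0.18, over 8, 6, 5 and 2 genes above the filter. The median deviations of the fibroblast markers were -0.16, 0.66 and 0.26 in HET 1 to HET 3, against -0.03, -0.01 and -0.03 in WT 1 to WT 3. Those of the blood markers were -0.07, 0.16 and 0.44 in HET 1 to HET 3, against -0.03, 0.14 and -0.12 in WT 1 to WT 3. The part of these markers in the histone values was not tested.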

How the data were processed

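Each library had 1 deposited table of 24346 gene symbols. Its values are on a log2 scale, as deposited by the authors, with no unit named. They were read as log2(FPKM + 1): none was negative, and low values came in steps set by transcript length (65.7% to 74.2% of low values per library within 0.15 of a whole step). The step was chosen per library to fit these same low values, which raises that share. Steps by length do not tell FPKM from other values per transcript length, so the unit is an assumption. The submitters' processing notes name TopHat and mm10. The abundance program, its annotation, the use of strand and the handling of shared reads are unknown here. Depth is an estimate from the step size.

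The 13122 genes reaching 1 FPKM in 3 or more libraries entered limma 3.58.1 (R 4.3.3), with genotype as the term, trend and robust options, Benjamini-Hochberg adjustment over all genes and a threshold of 0.05. SE values are limma's. The fit was tested on simulated data. Because 1 is added before the log, differences of low genes are understated.

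The members and lists were chosen with earlier results of these data known. Named members are the 10 of highest mean, the 6 largest differences in each direction, up to 6 without overlap in each direction, the 3 on each side of the filter and the 2 of highest mean per class, with the 3 largest differences of each other list. Pcp4, Hist4h4, Hist1h2ak, Hist2h2be, Hist1h2bf and the testis and duplicate genes were named after their values were seen. Positions (68 of 68 symbols) and promoters (62) come from RefSeq tables of GRCm38.p6, matched through older symbols, and transcripts from GENCODE M21. Plots used matplotlib 3.10.9 (Python 3.11.15).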

Additional observations from a re-analysis of the deposited data

How the results depend on the processing

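Over the whole table, 0 genes passed the adjusted p of 0.05, and 0 to 8 with 1 library left out, the 8 without HET 1, and 0 histone members passed in any alternative run. The 5 class medians stayed above 0 in every alternative run. With 1 library left out they were 0.06 to 0.26 in H1, 0.14 to 0.31 in H2A, 0.07 to 0.20 in H2B, 0.02 to 0.21 in H3 and 0.10 to 0.24 in H4, in each class lowest without WT 1 and highest without WT 2. The Hist2 median was 0.13, and 0.056 to 0.27 with 1 library left out. The Hist3 median of -0.01 was above 0 in 4 alternatives. The number of members with all TonEBP+/- above all wild-type libraries was 9, and 10 to 28 with 1 library left out (tried after the data had been seen). The 28 came without WT 2, where 10.3% of all genes did so, and it was 14 without HET 3 (8.04% of all genes) and 14 without WT 3 (9.57%), against 4.13% of all genes with all libraries. Without WT 1 it was 12 (7.7% of all genes), without HET 1 it was 10 (10.1%) and without HET 2 it was 10 (8.7%). With a pseudocount of 0.1 the log2 differences of Hist1h2ad and Hist1h2bk were 1.43 and 1.63. Of 32 named members fitted, 9 changed sign in at least 1 alternative, among them Hist3h2a, Hist1h4k and Hist1h3b. Same-numbered libraries had correlations of deviations from the group means of -0.21, -0.25 and -0.16, against 0.05 to 0.17 for differently numbered ones. Deviations sum to 0 within each group, so these values cannot decide whether the numbers pair the libraries. With the replicate number as a block, 0 genes passed and the median over the members was 0.17, as without it. The causes of these shifts were not tested. Count models were not run because the values are not counts. Low members rest on few fragments.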
